A study of Mus musculus with 8 samples.

Results

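The tRNA genes described here are those of the mouse nuclear genome that were overlapped, by at least 1 bp, by a peak of chromatin immunoprecipitation with an antibody against APOBEC2 in at least 1 of 6 libraries. They numbered 49 of the 408 genes of biotype tRNA listed on chromosomes 1 to 19, X and Y (12.0%), and 359 had no such peak. The called peaks themselves chose these 49 genes, so the presence of a peak and its fold, and every count made from them, are given as a description and with no test. APOBEC2 belongs to the AID/APOBEC proteins, a family named for cytidine deamination, and is most abundant in striated muscle. The antibody was a rabbit polyclonal. The cells were C2C12, a mouse myoblast line that fuses into myotubes when serum is lowered, and all samples were in medium with 2% horse serum. A later group had 3 immunoprecipitated libraries at 34 h after induction of differentiation and an earlier group had 3 at 14 h, with 1 input for each time. The growth protocol gives the earlier harvest as 24 h, so the time of the group labelled 14 h is uncertain. Whether replicates were separate cultures is not stated, so the spread between libraries may be technical. No library with a control antibody or from cells lacking APOBEC2 was used here, and peak lists hold no expression with which to check the cell type.

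Transfer RNA genes are short units transcribed by RNA polymerase III. Their promoter lies inside the gene, in an A box and a B box that are bound by the factor TFIIIC, which in turn places TFIIIB and the polymerase just upstream, and transcription stops at a run of T past the end of the gene. A mouse genome holds many near-identical copies, often in chains along a chromosome, and a large group of them lies among the histone genes of chromosome 13. In the gene names used here, the capital letter after n-T is the amino acid and the next letters are the anticodon, so that n-TVtac3 is a valine tRNA gene with anticodon TAC. The genes are 72 bp long in the median, shorter than any peak.

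The lists of peaks differed in length, and so did the number of tRNA genes found in them. On the chromosomes used, the libraries of 34 h held 2202, 5019 and 1052 peaks in replicates 1, 2 and 3, and those of 14 h held 765, 1320 and 794. The median summit of a list rested on 19 to 24 fragments, which makes single folds imprecise, and the absence of a call does not show that a gene was unbound. The treatment of reads that match several tRNA genes is not given in the sources used here, and a peak at one of several near-identical copies is uncertain in that respect.

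Every one of the 49 genes had a peak at 34 h (12.0% of tRNA genes, against 8.9% of all genes), and 3 of them also had one at 14 h (0.735%, against 2.86%). Because these calls chose the genes, nothing is read from their share. At 34 h, 15, 46 and 5 tRNA genes were overlapped in replicates 1, 2 and 3, and at 14 h the numbers were 1, 3 and 1. The libraries of the 2 times did not overlap, the lowest of 34 h being 5 and the highest of 14 h being 3. The libraries averaged 22.0 ± 21.4 tRNA genes at 34 h, against 1.67 ± 1.15 tRNA genes at 14 h (SD over 3 libraries each), a difference of 20.3. Without replicate 2 of 34 h, the longest list, the difference was 8.33 genes, and 18 tRNA genes had any peak (4.41%, against 5.35% of all genes).

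As a share of all tRNA genes these counts were 3.68%, 11.3% and 1.23% in replicates 1, 2 and 3 at 34 h, and 0.245%, 0.735% and 0.245% at 14 h. Among all 49943 genes of the table, of any length, peaks overlapped 3.98%, 8.4% and 1.87% at 34 h, and 1.48%, 2.67% and 1.54% at 14 h. The share for tRNA genes lay above that of all genes in replicate 2 of 34 h and below it in the other 5 libraries. Over all 6 libraries, 12.0% of tRNA genes and 9.35% of all genes were overlapped. Gene classes of similar length gave 0.299% of 1004 snRNA genes (3 genes), 0.0746% of 1340 snoRNA genes (1 gene) and 0.326% of 1228 miRNA genes (4 genes), with median lengths of 107, 130 and 80 bp.

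Peaks at tRNA genes also made up a larger part of the 34 h lists. They were 15 of 2202, 42 of 5019 and 5 of 1052 peaks in replicates 1, 2 and 3 of 34 h, and 1 of 765, 3 of 1320 and 1 of 794 at 14 h. The shares were 0.681%, 0.837% and 0.475% at 34 h, against 0.131%, 0.227% and 0.126% at 14 h, again with no overlap between times. The mean share was 0.664% ± 0.181 at 34 h, against 0.161% ± 0.0572 at 14 h (SD over 3 libraries each), a difference of 0.503 percentage points. When each list was shortened to the 765 peaks with the highest −log10 p, the counts of tRNA genes were 7, 6 and 4 at 34 h and 1, 1 and 1 at 14 h. In that comparison replicate 2 of 34 h did not stand above replicate 1. The share of all genes in the shortened lists was not computed, nor was the share of peaks at other gene classes. These values are therefore not read as particular to tRNA genes. Peaks of any kind also lay less often near a protein-coding boundary at 34 h. Within 1 kb of one were 62.9%, 54.0% and 69.4% of all summits at 34 h, against 77.5%, 80.0% and 80.5% at 14 h.

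**Figure D1:**
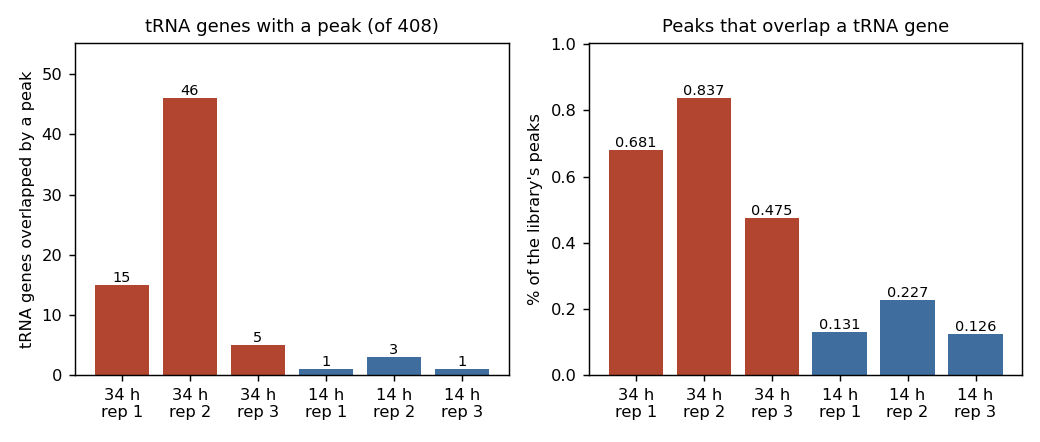
Left, the number of tRNA genes (of 408) overlapped by a peak in each library. Right, the percentage of each library's peaks that overlap a tRNA gene. The 3 bars on the left of each panel (red) are the libraries of 34 h, between 5 and 46 genes, and the 3 on the right (blue) those of 14 h, between 1 and 3 genes.

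Most of the genes were called in 1 library. Of the 49 genes, 34 had a peak in a single library, and in 31 of these it was replicate 2 of 34 h. Another 10 genes had a peak in 2 libraries, 4 in 3 libraries and 1 in 5, and none in all 6. At least 2 of the 3 libraries of 34 h called 14 tRNA genes (3.43% of tRNA genes, against 3.82% of all genes), and at least 2 of 14 h called 1 (0.245%, against 1.69% of all genes). Of the 14, 5 were called in both replicates 2 and 3, and 3 in both replicates 1 and 3. Of the 15 tRNA genes of replicate 1 at 34 h, 12 were also called in replicate 2 (80.0% of the 15 and 26.1% of the 46), and all 5 genes of replicate 3 were also called in replicate 2 (10.9% of the 46). The shorter lists thus held mostly genes that the longest list held too. The same overlaps were not computed for all genes. Without replicate 2 of 34 h, the genes with any peak fell from 49 to 18 among tRNA genes, and from 4672 to 2671 among all genes.

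The gene with a peak in the most libraries was n-TVtac3, a valine tRNA gene. Its fold enrichment over local background, the authors' value, was 7.71 and 9.09 in replicates 1 and 2 of 34 h, with no peak in replicate 3, and 13.9, 15.9 and 13.4 in replicates 1, 2 and 3 of 14 h. It was the only tRNA gene called in every library of 14 h, and all 3 folds of 14 h lay above both of 34 h. Folds of all peaks were also higher in the lists of 14 h, and by fold the peak ranked 447 of 2202 and 550 of 5019 in its lists at 34 h, and 151 of 765, 260 of 1320 and 191 of 794 at 14 h. The mean was 8.40 ± 0.979 at 34 h (SD, n = 2) and 14.4 ± 1.34 at 14 h (SD, n = 3). Its summits stood on 23 and 37 fragments at 34 h, and on 25, 34 and 25 at 14 h. They lay 10 and 81 bp from the tRNA gene at 34 h, and 106, 92 and 112 bp from it at 14 h.

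The other genes with a peak at 14 h had it in replicate 2 alone, the longest list of that time. The arginine tRNA gene n-TRacg6 (mm10 chromosome 14, 54517696 to 54517768) lies 226 bp from Prmt5, which encodes a protein arginine methyltransferase. Its fold was 6.03 and 10.6 in replicates 1 and 2 of 34 h and 5.13 in replicate 2 of 14 h, and the summit of replicate 2 at 34 h stood on 58 fragments, the most of any peak at a tRNA gene. The proline tRNA gene n-TPcgg2 (chromosome 1, 165642271 to 165642342) lies 6603 bp from the nearest protein-coding boundary, that of Rcsd1. Its fold was 5.78 in replicate 2 of 34 h and 6.38 in replicate 2 of 14 h.

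Peaks in all 3 libraries of 34 h, and in none of 14 h, were found at 3 tRNA genes. The asparagine tRNA gene n-TNgtt14 (chromosome 5, 149229001 to 149229074) had folds of 7.87, 10.3 and 9.53 in replicates 1, 2 and 3 (mean 9.23 ± 1.24, SD, n = 3). It stands alone, 13567 bp from the nearest protein-coding boundary, that of Uspl1, and its summits lay 65 to 87 bp from the tRNA gene. The serine tRNA gene n-TStga3 (chromosome 10, 63429476 to 63429557) had folds of 9.70, 7.04 and 5.60 (mean 7.45 ± 2.08, SD, n = 3), and lies 541 bp from a start of Ctnna3, an alpha-catenin gene. The leucine tRNA gene n-TLaag4 (chromosome 7, 120917517 to 120917598) had folds of 3.53, 7.51 and 5.76 (mean 5.60 ± 1.99, SD, n = 3). It lies 180 bp upstream of the annotated start of Polr3e, which itself encodes a subunit of RNA polymerase III. The overlap was partial in replicates 1 and 3, where the peak covered 40.2% and 7.32% of n-TLaag4, against 100% in replicate 2. The peak of replicate 1 was also weak, with a −log10 q of 2.03. In replicate 1 the summit at n-TLaag4 was nearer to the Polr3e boundary (54 bp) than to the tRNA gene (126 bp), whereas in replicates 2 and 3 it was nearer to the tRNA gene (31 against 149 bp and 78 against 102 bp).

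The sequence of a member gene could be read, in whole or in part, where the RefSeq promoter window of a neighbouring protein-coding gene (GRCm38.p6, 250 bases before to 50 after an annotated start) ran over it. The 4 genes with 20 or more bases covered are shown because they carry the internal promoter of the unit under the peak. Capitals mark matches to the A box, searched as TGGCNNA, and to the B box, searched as GGTTCGA, on both strands. All matches lay on the plus strand of the chromosome, and each stretch is printed in that direction.
n-TRtcg5, chr7:79466419-79466491, plus strand, all 73 bases: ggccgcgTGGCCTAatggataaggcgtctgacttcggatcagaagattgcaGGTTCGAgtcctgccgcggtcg
n-TRacg6, chr14:54517696-54517720, plus strand, first 25 of 73 bases: gggccagTGGCGCAatggataacgc
n-TLaag4, chr7:120917528-120917598, plus strand, last 71 of 82 bases: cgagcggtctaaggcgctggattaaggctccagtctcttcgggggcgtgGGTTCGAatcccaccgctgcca
n-TNgtt7, chr10:80249199-80249232, plus strand, last 34 of 74 bases: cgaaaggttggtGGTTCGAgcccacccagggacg

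The B box letters were found in each of the 3 stretches that run to the end of the gene, and the A box letters in both that hold its beginning. Of the 32851 promoter windows of 300 bases in the RefSeq table, 299 (0.910%) held the B box letters and 14770 (45.0%) the A box letters. A run of TTTT began 8 bases past the end of n-TLaag4, 11 past n-TNgtt7 and 12 past n-TRtcg5, although 78.0% of windows hold such a run on one strand or the other. These matches describe the annotated genes and show no binding. Of the 4 genes, n-TRtcg5 lies inside the span of Polg, the gene of the mitochondrial DNA polymerase, 146 bp from an annotated start of that gene. It had a fold of 5.74 in replicate 2 of 34 h alone, with a summit 28 bp from that start and 118 bp from the tRNA gene.

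The window of Polr3e shows how close the tRNA gene lies to the protein-coding start, at 120917778. Only the peak of replicate 2 at 34 h (120917476 to 120917933) covered both. The peaks of replicates 1 and 3 ended before the start, at 120917736 and 120917748. Capitals mark the covered part of n-TLaag4, whose B box match is on the same strand as Polr3e.
Polr3e, chr7:120917528-120917827, plus strand: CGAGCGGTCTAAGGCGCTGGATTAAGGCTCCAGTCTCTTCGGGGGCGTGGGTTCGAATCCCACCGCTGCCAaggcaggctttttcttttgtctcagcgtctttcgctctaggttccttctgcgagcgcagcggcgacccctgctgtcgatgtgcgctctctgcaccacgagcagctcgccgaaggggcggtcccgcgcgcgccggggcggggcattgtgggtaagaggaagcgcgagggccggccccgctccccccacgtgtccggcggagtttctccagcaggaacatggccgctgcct
Prmt5 is on the minus strand, opposite to the A box match of n-TRacg6, whose first bases stand in capitals, in reverse complement, at the far end of its window.
Prmt5, chr14:54517421-54517720, minus strand: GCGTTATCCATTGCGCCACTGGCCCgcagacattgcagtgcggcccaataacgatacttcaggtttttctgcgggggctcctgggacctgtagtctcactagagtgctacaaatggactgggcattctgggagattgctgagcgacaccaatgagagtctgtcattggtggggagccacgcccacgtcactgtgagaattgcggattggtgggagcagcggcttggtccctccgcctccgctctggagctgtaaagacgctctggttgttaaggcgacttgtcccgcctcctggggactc
In the 3 libraries with a peak at n-TRacg6 the summit lay 121 and 133 bp from the Prmt5 boundary at 34 h, and 180 bp from it at 14 h. It lay 105 and 93 bp from the tRNA gene at 34 h, and 46 bp from it at 14 h, between the 2 genes each time.

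The remaining 9 genes with a peak in 2 libraries had both at 34 h. The isoleucine tRNA gene n-TIaat16 (chromosome 7, 28372999 to 28373093) had a fold of 8.67 in replicate 1 and 15.0 in replicate 2, the highest at any tRNA gene at 34 h, with summits 203 and 126 bp from the tRNA gene and 115 and 192 bp from a boundary of Plekhg2, a guanine nucleotide exchange factor gene. The glutamate tRNA gene n-TEttc4 (chromosome 14, 79481668 to 79481739), inside the span of Elf1 and 400 bp from a start of the splicing factor gene Wbp4, had folds of 7.88 and 8.32 in replicates 1 and 2. The histidine tRNA gene n-THgtg3 (chromosome 2, 122377363 to 122377434) had 7.69 in replicate 2 and 6.46 in replicate 3, and the alanine tRNA gene n-TAtgc9 (chromosome 11, 48834429 to 48834500) had 6.16 and 7.71 in replicates 1 and 2. The first of these lies 8216 bp from a protein-coding boundary. The second lies inside the span of Trim7, 8291 bp from its outer limit and 2971 bp from an annotated start of it. The other 5 were n-TPagg4, n-TEctc10, n-TYgta10, n-TLtaa3 and n-TRacg2, with folds between 4.58 and 6.37. Of these, n-TRacg2 lies 256 bp from a start of Sacm1l, a phosphoinositide phosphatase gene, and both of its summits were nearer to that boundary (63 and 127 bp) than to the tRNA gene (193 and 129 bp).

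**Figure D2:**
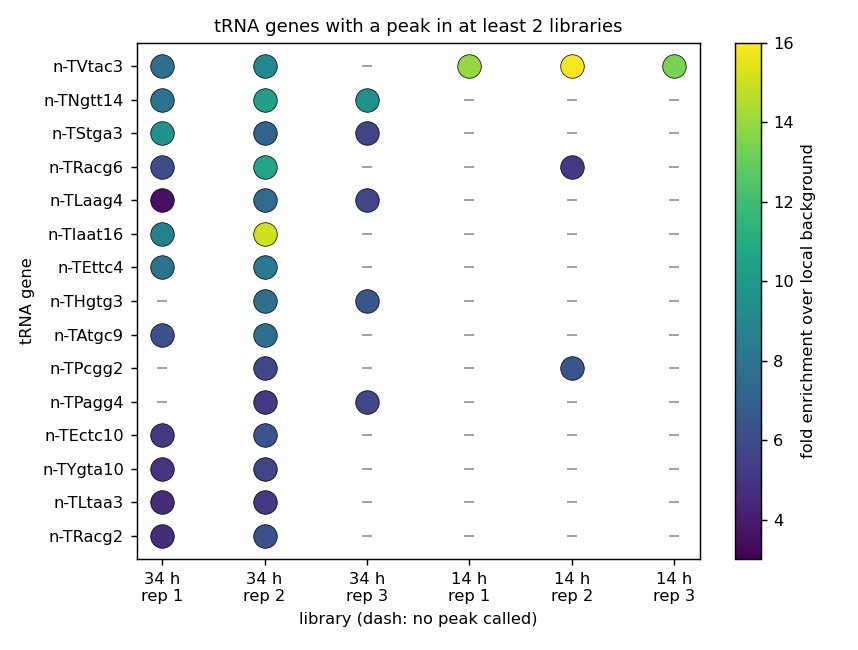
Fold enrichment over local background, the authors' value, at the 15 tRNA genes with a peak in at least 2 libraries. Columns are libraries, with 34 h on the left and 14 h on the right, circles are coloured by fold, and a dash means that no peak was called. The n-TVtac3 row has circles in all 3 libraries of 14 h, and 12 of the other rows have none there.

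Of the 34 genes called in 1 library, the 10 of highest fold ranged from 9.54 at n-TLaag8 to 6.06 at n-TGtcc2. The leucine tRNA gene n-TLaag8 (chromosome 14, 51063883 to 51063964) lies in 1 chain with n-TPagg4, 6347 bp from the olfactory receptor gene Olfr750. The phenylalanine and asparagine tRNA genes n-TFgaa3 and n-TNgtt7 share a peak of fold 7.80 whose summit lay 6 bp from a boundary of Ndufs7, a gene of respiratory complex I. The others were n-TMcat11 (fold 6.84, 270 bp from Ilf2), n-TScga1 (6.80), n-TEttc7 (6.39, 256756 bp from the nearest boundary), n-TLcaa3 (6.37, the same peak as n-TEctc10), n-TCgca55 (6.22) and n-TTcgt5 (6.21, replicate 1). All except n-TTcgt5 were called in replicate 2 of 34 h.

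Just inside the rule, ranked by the highest −log10 q of each gene over its libraries, the lowest were n-TAagc13 (3.18), n-TVcac6 (4.25) and n-TAcgc8 (4.53). Just outside it, n-TYgta1, n-TTtgt3 and n-TGtcc3 lay 5, 9 and 10 bp from the edge of a peak of replicate 2 at 34 h that did not reach them. Of the 359 genes with no peak, 42 had one within 1 kb and 86 within 10 kb.

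Peaks at tRNA genes were neither the strongest nor the weakest of their lists. Their median fold was 6.03, 5.72 and 5.76 in replicates 1, 2 and 3 of 34 h, where the median of all peaks was 5.92, 5.72 and 6.04. At 14 h the median was 13.9, 6.38 and 13.4 over 1, 3 and 1 peaks, where that of all peaks was 8.11, 8.00 and 8.48. Ranked by fold, 4 of 15, 9 of 42 and 1 of 5 peaks at tRNA genes stood in the top 20% of the lists of 34 h. The median number of fragments under them at 34 h was 21, 23.5 and 19, near that of all peaks (19, 21 and 21).

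Summits lay close to the tRNA genes. The 71 pairs of a gene and a library came from 67 peaks in 45 distinct regions, since 4 peaks covered 2 tRNA genes each. The summit was inside the tRNA gene in 10 of the 67 peaks and within 100 bp of it in 54 (80.6%), with a median distance of 43 bp and a maximum of 203 bp. It was nearer to the tRNA gene than to the outer start or end of any protein-coding gene in 61 (91.0%), and in 60 (89.6%) when other annotated starts of protein-coding genes were counted too. By library this was 12 of 15, 39 of 42 and 5 of 5 at 34 h, and all of the 1, 3 and 1 peaks at 14 h. The 6 exceptions to the 61 lay at n-TIaat16, n-TLaag4 and n-TRacg2 in replicate 1, and at n-TNgtt7, n-TDgtc16 and n-TRacg2 in replicate 2 of 34 h. Because members were chosen by overlap with narrow peaks, a summit near the tRNA gene is in part set by the choice. For 39 of the 67 peaks the tRNA gene had no outer protein-coding boundary within 1 kb. With summits at most 203 bp away, these could only be nearer to the tRNA gene than to such a boundary. The comparison was open only at the other 28 peaks, where all 6 exceptions lay.

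At 34 h a smaller share of these summits than of all summits lay at a protein-coding boundary. Within 1 kb of one were 46.7%, 35.7% and 40.0% of summits at tRNA genes in replicates 1, 2 and 3 of 34 h, where the share of all summits was 62.9%, 54.0% and 69.4%. At 14 h it was 1 of 1, 2 of 3 and 1 of 1 summits at tRNA genes, where the share of all summits was 77.5%, 80.0% and 80.5%. These peaks were chosen by overlap with a tRNA gene, and their summits lay at most 203 bp from one. Their share is thus largely set by where tRNA genes lie, and nothing is read from the comparison with all summits. Of the 408 tRNA genes, with or without a peak, 49 lay within 1 kb of a boundary, a lower share than that of these summits. Where the tRNA gene had a boundary within 1 kb (16 genes, 28 peaks), the median summit lay 79.5 bp from the tRNA gene and the median fold was 6.94. Where it had none (33 genes, 39 peaks), the median summit lay 29 bp from the tRNA gene and the median fold was 5.70. In the second set 36 of 39 summits (92.3%) lay within 100 bp of the tRNA gene, and in the first 18 of 28 (64.3%).

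**Figure D3:**
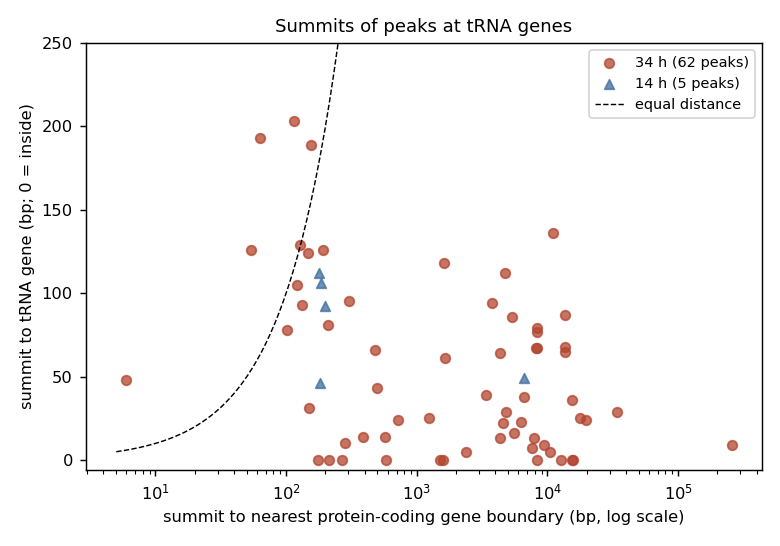
Each point is 1 of the 67 peaks that overlap a tRNA gene, with the distance from its summit to the nearest protein-coding gene boundary on the horizontal axis (bp, log scale) and to the tRNA gene on the vertical axis (bp, 0 when inside). Red circles are 34 h and blue triangles 14 h. Points to the right of the dashed line, 61 of 67, are nearer to the tRNA gene. They include all 39 peaks at tRNA genes with no boundary within 1 kb, which could fall nowhere else.

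Distance to a protein-coding gene was not itself part of the rule, but it is not independent of it. Peaks of any kind often lay near a boundary, with 54.0% to 80.5% of all summits of a library within 1 kb of one. A choice by peaks therefore favours tRNA genes near a boundary, and how much of the values below this accounts for was not tested. The 49 genes lay a median of 4376 bp from the nearest protein-coding boundary, the outer start or end of a gene (quartiles 400 and 9335 bp), and the other 359 tRNA genes 12817 bp (5481 and 40600 bp). The median was 1499 bp over the 15 genes with a peak in at least 2 libraries, and 470.5 bp over the 12 genes left with lists of equal length. Of tRNA genes within 1 kb of a boundary, 16 of 49 were members (32.7%), of those at 1 to 10 kb, 21 of 140 (15.0%), and of those farther away, 12 of 219 (5.48%). Without replicate 2 of 34 h these counts were 7, 7 and 4, in the same order. Counting each chain of tRNA genes once gave 3948 bp over 42 chains with a member and 11879 bp over the 134 chains without. Genes in 1 chain share their surroundings and are not independent, so no test is given. Of the 34 tRNA genes inside the span of a protein-coding gene 5 were members (14.7%), near the share outside, 44 of 374 (11.8%).

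Isolated tRNA genes and small chains held most of the members. With genes at most 10 kb apart joined into a chain, 20 of 111 lone genes (18.0%), 21 of 138 genes in chains of 2 to 5 (15.2%) and 8 of 159 genes in longer chains (5.03%) had a peak. Without replicate 2 of 34 h the counts were 11, 7 and 0, and none of the genes in these longer chains had a peak in more than 1 library. With a gap of 50 kb the 3 counts were 20 of 98, 13 of 55 and 16 of 255, or 11, 4 and 3 without replicate 2 of 34 h, and 3 genes of the longer chains had a peak in at least 2 libraries. Chains with 2 members each numbered 7, on chromosome 19 (12002236 to 12012338, 8 tRNA genes), chromosome 11 (69110465 to 69125248, 7 genes, and 58302177 to 58302580, 2 genes), chromosome 1 (171101838 to 171111515, 5 genes), chromosome 3 (19627959 to 19629067, 4 genes), chromosome 14 (51063883 to 51065240, 3 genes) and chromosome 10 (80248964 to 80249232, 2 genes). In 4 of these 7 chains the 2 members shared a single peak.

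The histone cluster of chromosome 13, which holds more tRNA genes than any other stretch, was nearly free of peaks at them. From the first to the last replication-dependent histone gene (21715711 to 23934913, 54 histone genes) there were 77 tRNA genes, of which 2 had a peak (2.60%), against 47 of the 331 elsewhere (14.2%). Both peaks came from replicate 2 of 34 h. The serine tRNA gene n-TScga1 (22022419 to 22022500, fold 6.80, summit inside the gene) lies 12622 bp from H2ac12, and the alanine tRNA gene n-TAagc13 (23431412 to 23431484, fold 3.67) lies 99560 bp from the nearest histone gene, H4c8. The span was not free of other peaks, with 19, 38 and 10 in the libraries of 34 h and 8, 14 and 10 at 14 h. Histone genes were overlapped in numbers of 15, 32 and 8 at 34 h and 5, 14 and 7 at 14 h. The tRNA genes of the span lay a median of 11923 bp from a protein-coding boundary, close to the 11085 bp of those elsewhere, although 1 of 77 (1.30%) was within 1 kb of one, against 48 of 331 (14.5%).

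**Figure D4:**
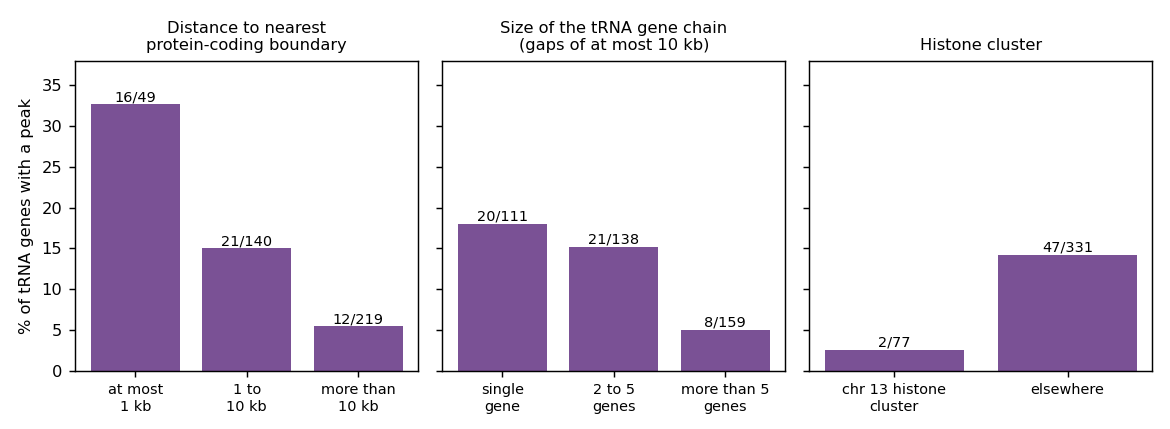
Percentage of tRNA genes with a peak in any library, with members over annotated genes above each bar, by distance to the nearest protein-coding boundary (left), by the number of tRNA genes in a chain (middle), and inside the chromosome 13 histone cluster or elsewhere (right). The share is 32.7% within 1 kb of a boundary and 2.60% in the histone cluster.

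Members lay on 17 of the 19 chromosomes that carry a listed tRNA gene. Chromosome 11 had 10 of 52, chromosome 10 had 6 of 11, chromosomes 7 and 14 had 5 of 10 and 5 of 12, and chromosomes 1 and 3 had 4 of 37 and 4 of 40. Chromosomes 13 and 6, which carry the most tRNA genes, had 2 of 105 and 1 of 53, and the other chromosomes together had 46 of 250 (18.4%). The genes of chromosome 6 lay a median of 83073 bp from a protein-coding boundary.

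Nearly every amino acid was represented, with members in 19 of 20 classes and 35 of 48 anticodons. Leucine had the most members, 7 of 26 genes, followed by glutamate with 5 of 20, arginine with 5 of 24, valine with 4 of 24, alanine with 4 of 33 and tyrosine with 3 of 10. Cysteine, the largest class, had 1 of 57 (n-TCgca55), and the 49 cysteine genes on chromosome 6 had none. Tryptophan had 0 of 8. Among anticodons, GTA (tyrosine) and CTC (glutamate) had 3 members each, of 10 and 12 genes, and TAC (valine) and TAG (leucine) 2 of 3 each. At 14 h the 3 genes carried valine, arginine and proline anticodons.

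**Figure D5:**
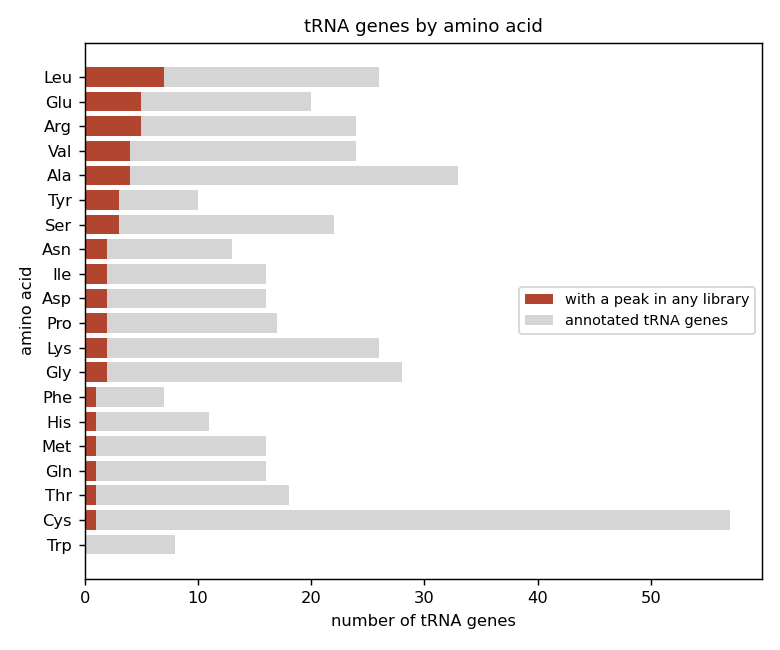
Number of annotated tRNA genes (grey) and of those with a peak in any library (red) for each amino acid. Leucine has 7 red of 26 and cysteine 1 of 57.

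Other genes transcribed by RNA polymerase III differed by class. None of 51 listed 5S ribosomal RNA genes had a peak, nor had any of 18 listed 5S pseudogenes, where 9.35% of all genes had one. Many of the 5S genes stand close together on chromosome 8 (123538784 to 123622046). The treatment of reads that match several copies is not given, so the lack of calls there does not show that they were unbound. Of 9 other such genes, 4 had a peak, all at 34 h, too few for a share to be read. Rpph1, the RNA of RNase P, had folds of 6.03 and 4.65 in replicates 1 and 2, and lies 126 bp from Parp2. Vaultrc5, a vault RNA gene, had folds of 5.37 and 5.18 in the same libraries. Rmrp, the RNA of RNase MRP, and Rn7s2, a signal recognition particle RNA, had folds of 3.33 and 5.73 in replicate 2. No peak was called at Rn7sk, Rn7s1, Rny1, Rny3 or Rnu6.

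Of 35 protein-coding genes of the RNA polymerase III machinery, 6, 11 and 3 were called in replicates 1, 2 and 3 of 34 h. At 14 h the numbers were 0, 2 and 0. Genes of any kind were also called more at 34 h, where a peak of any library overlapped 8.9% of all genes, against 2.86% at 14 h. The share of all protein-coding genes in each library was not computed. Of the 35 subunits and factors, 12 (34.3%) had a peak of any library within 1 kb of a boundary, where 15.8% of all protein-coding genes had one. At least 2 libraries of 34 h called 6 of the 35, where the share of all protein-coding genes was 7.36%, and at least 2 of 14 h called 0, where it was 3.87%. The 6 were Gtf3c2 and Gtf3c6, subunits of TFIIIC, Tbp, the TATA-binding subunit of TFIIIB, Polr3c and Polr3e, subunits of the polymerase, and Polr2h, a subunit shared by the 3 nuclear RNA polymerases. Gtf3c2 had folds of 4.47, 6.48 and 5.98 at 34 h and 7.56 in replicate 2 of 14 h, and Polr2h had 5.65, 5.37 and 6.63 at 34 h with no peak at 14 h. The peak at Polr3e is the one at n-TLaag4 and is not independent of it. The other 6 were Polr3f, Polr3k, Polr3gl, Snapc1 and Brf1, each in replicate 2 of 34 h alone, and Polr3g, in replicate 2 of 14 h alone. Without replicate 2 of 34 h, 7 of 35 genes had a peak in any library, where 10.2% of all protein-coding genes had one.

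Genes that act on the transcript were called at both times, 2, 13 and 3 of 37 in replicates 1, 2 and 3 of 34 h and 1, 6 and 4 at 14 h. Among all genes, a peak of any library overlapped 8.9% at 34 h and 2.86% at 14 h, and shares per library were not computed for protein-coding genes. Of these 37 genes of tRNA processing, modification and export, 15 (40.5%) had a peak in any library, where 15.8% of all protein-coding genes had one. At least 2 libraries called 3 of the 37 at 34 h and 4 at 14 h, where the shares of all protein-coding genes were 7.36% and 3.87%. Trmt6, a subunit of a tRNA methyltransferase, had the highest folds, with 9.98, 13.2 and 6.75 at 34 h and 11.9 and 8.07 in replicates 2 and 3 of 14 h. Xpot, the tRNA export receptor, had 5.65, 5.50 and 5.59 at 34 h and 6.01 in replicate 2 of 14 h. Thg1l, which adds a guanosine to histidine tRNA, had 5.53 and 5.34 in replicates 2 and 3 of 34 h and 8.52 and 4.93 in replicates 2 and 3 of 14 h. Xpo5, an export receptor for small RNAs, had 4.51 in replicate 2 of 34 h and 7.30, 9.52 and 6.14 at 14 h, and Rpp30, a subunit of RNase P, had no peak at 34 h and 6.74 and 5.33 in replicates 2 and 3 of 14 h. The other 10 had a peak in a single library, which was replicate 2 of 34 h for Rpp38, Ssb, Clp1, Tsen34, Pop4, Adat1, Adat2, Elac2 and Osgep, and replicate 2 of 14 h for Tsen15. Without replicate 2 of 34 h, 6 of the 37 had a peak, where 10.2% of all protein-coding genes had one. The difference between times was not tested for either list.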

How the data were processed

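The submitters' processing notes name Subread, MACS2 and mm10, without the versions or threshold used. List names pair every immunoprecipitate with its time's input and carry a tag, GFPsh, that no label explains. In the deposited lists the fold is a ratio, on a linear scale, of fragments over local background at the summit, the deposited significance is −log10 p and −log10 q, and a deposited integer score follows −log10 q and was not used. The number of fragments at each summit was solved from the fold and p-value, to within 0.001 on the −log10 p scale.

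Gene positions came from the RefSeq table of GRCm38.p6, the assembly of mm10, without strand. It lists 408 nuclear tRNA genes, of which 5 are placed below 3 Mb of chromosome 11, where no list had a peak. Distances are to the outer start or end of 21887 protein-coding genes. Sequences came from the RefSeq promoter windows of the same build. The members and gene lists were chosen with earlier results of these data known. Of the processing genes 37 of 38 symbols matched, and all 35 of the polymerase list. Genes were named by rule: all members with peaks in 2 or more libraries, the 10 of highest fold in 1 library, members in the histone cluster, and the 3 nearest on each side of the rule. The 2 times are compared by counts per library and no test result is given, since the peak calls chose the genes. Scripts used Python 3.11.15, pandas 2.3.3, numpy 2.4.6 and scipy 1.17.1, and were tested on simulated data. The protein-coding surroundings of 1 tRNA gene are not reported here.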

Additional observations from a re-analysis of the deposited data

Results flagged for a closer look

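The 22 tRNA genes of the mitochondrial genome lie outside the chromosomes counted above, and peaks overlapped 15, 13 and 13 of them in replicates 1, 2 and 3 of 34 h, and 0, 2 and 0 at 14 h. They are given here because they come from data that entered no comparison. The mitochondrial peaks numbered 7, 6 and 16 at 34 h and 3, 7 and 3 at 14 h and had folds of 1.57 to 2.02 at 34 h and 1.55 to 1.97 at 14 h, below every fold at a nuclear tRNA gene. The widest peak was 4781, 4984 and 1886 bp at 34 h, against 447, 471 and 182 bp at 14 h. The share of other mitochondrial genes under these peaks was not computed, so the counts are not read as a result about tRNA genes. The difference between times was not tested here.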

How the results depend on the processing

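The difference between times in the number of tRNA genes with a peak was positive in every alternative run, which rests on the same peak calls. It was 18.3 genes at a −log10 q of at least 5 and 4.67 with lists of equal length. With the summit within 100 bp of the tRNA gene, overlapped or not, it was 16.7, and with at least 50% of the gene covered 17.3. In the last setting the times no longer separated, since replicate 3 of 34 h and replicate 2 of 14 h had 3 genes each. With the summit within 100 bp the same libraries had 5 and 4. The mean difference was in every run that kept replicate 2 of 34 h drawn from that library too. It was 13.3 with peaks near protein-coding boundaries left out, a setting chosen after seeing the data, where 33 genes had a peak in any library. Leaving out each library in turn gave 8.33 to 28.8, and 0.417 to 0.598 percentage points for the share of peaks. With libraries paired by replicate number as a block, the difference was 20.3 genes and 0.503 percentage points, as it must be for means over the same libraries. Same-numbered libraries did not deviate together over 5567 merged regions (r = −0.0753, −0.186 and −0.0812), and no library correlated best with its own number. These values gave no sign that the numbers pair the samples. They cannot exclude it, since all correlations were weak and the origin of the replicates is not stated.

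The number of genes with any peak was 12 with lists of equal length, 15 with a peak required in at least 2 libraries and 0 in all 6, and 18 to 49 with each library left out. Genes in at least 2 libraries of 34 h numbered 4 with lists of equal length, 3 when all 3 libraries were required, and 3 to 14 with each library left out. At 14 h that count was 1 and became 0 with the summit within 100 bp. Members in the histone cluster were 1 at a −log10 q of at least 5, 0 with lists of equal length and 0 to 2 with each library left out. With the summit within 100 bp, 3 tRNA genes of the cluster were called, since that setting asks for no overlap and can admit genes that are not members. The median distance of members to a protein-coding boundary was 470.5 bp with lists of equal length. Depth limits all of these, since a summit stood on as few as 13 fragments at a tRNA gene and uncalled genes are not shown to be unbound. The cause of each change was not tested beyond the length of the lists and the number of libraries.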
